A study of Mus musculus with 3 samples.

Results

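The nuclei described here came from mouse lacrimal gland, the gland that makes the watery, protein-rich part of the tear film. They were 7370 of 29599 deposited barcodes (24.9%) chosen as acinar-like from their RNA counts: 3083 of 7253 in the control library, 1735 of 10024 in the scopolamine library and 2552 of 12322 in the tamsulosin library. A nucleus was taken when it held 1600 to 8000 UMIs (counted RNA molecules), at least 300 genes and at most 5% mitochondrial RNA. In addition Chrm3, the M3 muscarinic receptor, had to reach 0.2% of its UMIs and the carbonic anhydrase Car6 had to stay below 0.3%. The secretory genes Mucl2, Scgb2b2 and Scgb1b2 had to sum to less than 30%. Ptprb, Lama2, Skap1, F13a1, Mrc1, Trp63 and Myh11, which mark vessels, stroma, immune cells and myoepithelium, could take at most 0.1%, and the duct genes Krt7, Krt19, Krt23, Elf5, Ehf and Wfdc2 had to stay below 0.1%. The members were thus chosen by the measured levels of these genes, whose values are a description.

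Each group was 1 library of nuclei profiled with a droplet 3' chemistry. Control glands came from normal mice. The scopolamine library came from mice with a dry eye model made with scopolamine, a blocker of muscarinic receptors, together with dry stress. The tamsulosin library came from mice of that same model given tamsulosin, a blocker of alpha-1 adrenergic receptors. Scopolamine and dry stress are therefore shared by both of the latter libraries. Strain, age, sex, doses, times and the number of animals per library are not given in the sources used here, and a protocol text that also names a plate method mentions a sort of red fluorescent nuclei, without saying whether it was applied to these libraries.

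Acinar cells release tear proteins and fluid when parasympathetic nerves act on muscarinic receptors, and sympathetic nerves act on the same cells through adrenergic receptors. Receptor signals raise intracellular calcium, which drives exocytosis of secretory granules and opens chloride and potassium channels, and the Na-K-Cl cotransporter and the sodium pump keep that salt and water flow going. Like most tissues, the gland also runs a circadian clock, in which Arntl and its partners Clock and Npas2 drive Per, Cry and Nr1d genes that in turn hold them back.

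Members of the control library were shallower and carried less secretory RNA. Their median was 2211 UMIs against 3715 in the scopolamine and 4134 in the tamsulosin library. The median share of the 3 secretory genes was 4.54%, 11% and 15%, and that of mitochondrial RNA 0.115%, 0.148% and 0.530%, in the same order. Pairs of libraries shared 22 to 35 barcodes, of which 1 to 5 were members in both. Levels below are CPM, the UMIs of a gene per 1000000 UMIs of all members of that library. With 1 library per group there was no replicate and no test, and the 95% intervals (exact Poisson for CPM, exact conditional binomial for ratios, Clopper-Pearson for shares) cover counting error only. As a background, 42, 112 and 144 non-epithelial barcodes of the control, scopolamine and tamsulosin libraries were measured in the same way. They held at least 0.3% of vessel, stromal or immune marker RNA and under 0.2% Chrm3.

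Near the limits of the rule some values ran on and others did not. In the control library 400 members had Chrm3 between 0.2% and 0.25% and 275 otherwise eligible barcodes lay between 0.15% and 0.2%, with Esrrg at 2029 and 1781 CPM. For the duct sum, 1266 control members lay between 0.05% and 0.1% and 552 barcodes between 0.1% and 0.15%, with Esrrg at 2155 and 2041 CPM. In the tamsulosin library the corresponding duct numbers were 1154 and 713, with Chst9 at 1112 CPM inside and 1494 CPM outside the limit. In the scopolamine library Chst9 was at 403 CPM in the 132 members from 7000 UMIs up and at 42.5 CPM in 97 barcodes just above the upper limit. At the Car6 limit it was there at 435 CPM in 55 members and 98.7 CPM in 25 barcodes outside. In the tamsulosin library Bhlha15 was at 34.9 CPM in 113 members just inside the Car6 limit and at 104 CPM in 56 barcodes just outside.

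The acinar label held for part of its markers. Aqp5, the apical water channel of acinar cells, was at 61.9 CPM (56.9 to 67.2) in control, 85.2 (78.5 to 92.3) in scopolamine and 72.6 (67.7 to 77.8) in tamsulosin members, against 19.9, 43.1 and 42.7 CPM in the non-epithelial barcodes. Bhlha15, the transcription factor of mature secretory cells, was at 41.5, 47.4 and 45.6 CPM against 19.9, 15.4 and 18.0. These backgrounds rested on 3, 14 and 19 UMIs of Aqp5 and on 3, 5 and 8 UMIs of Bhlha15. Both genes were above background in scopolamine and tamsulosin members, and control members are not placed against 3 UMIs. The other defining markers sat mostly in part of the members. Slc12a2, the Na-K-Cl cotransporter, was at 139 CPM in control, 172 in scopolamine and 799 in tamsulosin members, and Adcy8, a calcium-stimulated adenylyl cyclase, was at 10.1, 11.6 and 16.4 CPM.

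The members were therefore divided by 5 small gene sets that varied together among them, after thinning each nucleus to 1600 UMIs. The sets were chosen after their values were seen, so the levels of set genes describe the split. The larger groups are named Esrrg-Kcnn2, after the orphan nuclear receptor Esrrg and the calcium-activated potassium channel Kcnn2, and Chst9-Fut9, after a sulfotransferase and a fucosyltransferase. The Esrrg-Kcnn2 group made up 88.5% of control members (87.3% to 89.6%, 2727 nuclei), 77.3% of scopolamine members (1341 nuclei) and 42.2% of tamsulosin members (1077 nuclei). The Chst9-Fut9 group made up 5.19% (4.43% to 6.03%, 160 nuclei), 16.0% (14.3% to 17.8%, 277 nuclei) and 51.7% (49.8% to 53.7%, 1320 nuclei). The share was thus lowest in the control and highest in the tamsulosin library, and the intervals did not overlap.

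**Figure D1:**
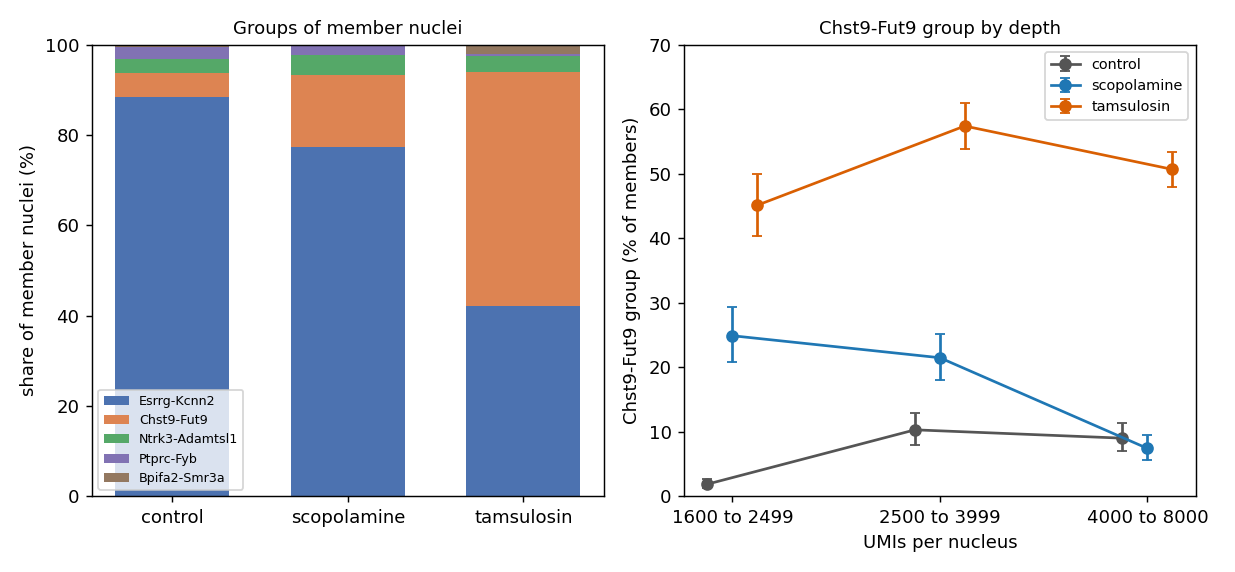
Left, share of member nuclei in each of 5 groups (stacked bars, percent) in the control, scopolamine and tamsulosin libraries. Right, share of the Chst9-Fut9 group (percent of members, bars show the exact 95% binomial interval) within 3 ranges of UMIs per nucleus, where tamsulosin is highest in each range at 45.1% to 57.4%.

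The order of control and scopolamine changed with depth, while tamsulosin was highest at each depth. Among members of 1600 to 2499 UMIs the Chst9-Fut9 share was 1.88% in control, 24.9% in scopolamine and 45.1% in tamsulosin. From 2500 to 3999 UMIs it was 10.3%, 21.5% and 57.4%. From 4000 to 8000 UMIs it was 9.0% (7.0% to 11.3%) in control, 7.42% (5.68% to 9.48%) in scopolamine and 50.7% in tamsulosin, so that control and scopolamine could not be told apart in the deepest range. The tamsulosin share also moved with mitochondrial RNA, whose median in that library was 0.727% in the Chst9-Fut9 and 0.362% in the Esrrg-Kcnn2 group. Keeping only members with at most 1% mitochondrial RNA, the share was 43.6%. Over both groups together most nuclei fell clearly on one side. Between 30% and 70% of set UMIs came from the Chst9-Fut9 set in 170 of 2887 control, 98 of 1618 scopolamine and 154 of 2397 tamsulosin nuclei. The Chst9-Fut9 group itself was less cleanly set apart in control. Of its 160 control nuclei, 81 were in the range next above 70% and 26 in the topmost range. These numbers were 108 and 118 of 277 in scopolamine, and 250 and 1011 of 1320 in tamsulosin.

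Slc12a2 followed this split. It was at 1028, 912 and 1377 CPM in the Chst9-Fut9 group of the control, scopolamine and tamsulosin libraries, against 64.7, 44.6 and 132 CPM in the Esrrg-Kcnn2 group. In the Esrrg-Kcnn2 group it was below the non-epithelial barcodes (99.5, 73.8 and 200 CPM), so there it is read as background. Of all member UMIs of Slc12a2, 50.6% in control, 66.2% in scopolamine and 87.3% in tamsulosin came from the Chst9-Fut9 nuclei. Bhlha15 went the other way, at 43.4, 53.4 and 73.3 CPM in the Esrrg-Kcnn2 group and 26.8, 19.4 and 21.7 CPM in the Chst9-Fut9 group, the latter close to background. Aqp5 differed little between them, at 64.5, 89.1 and 77.6 CPM against 53.5, 65.1 and 69.0 CPM. No single group thus carried all of the acinar markers, and the groups are called by their genes here.

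**Figure D2:**
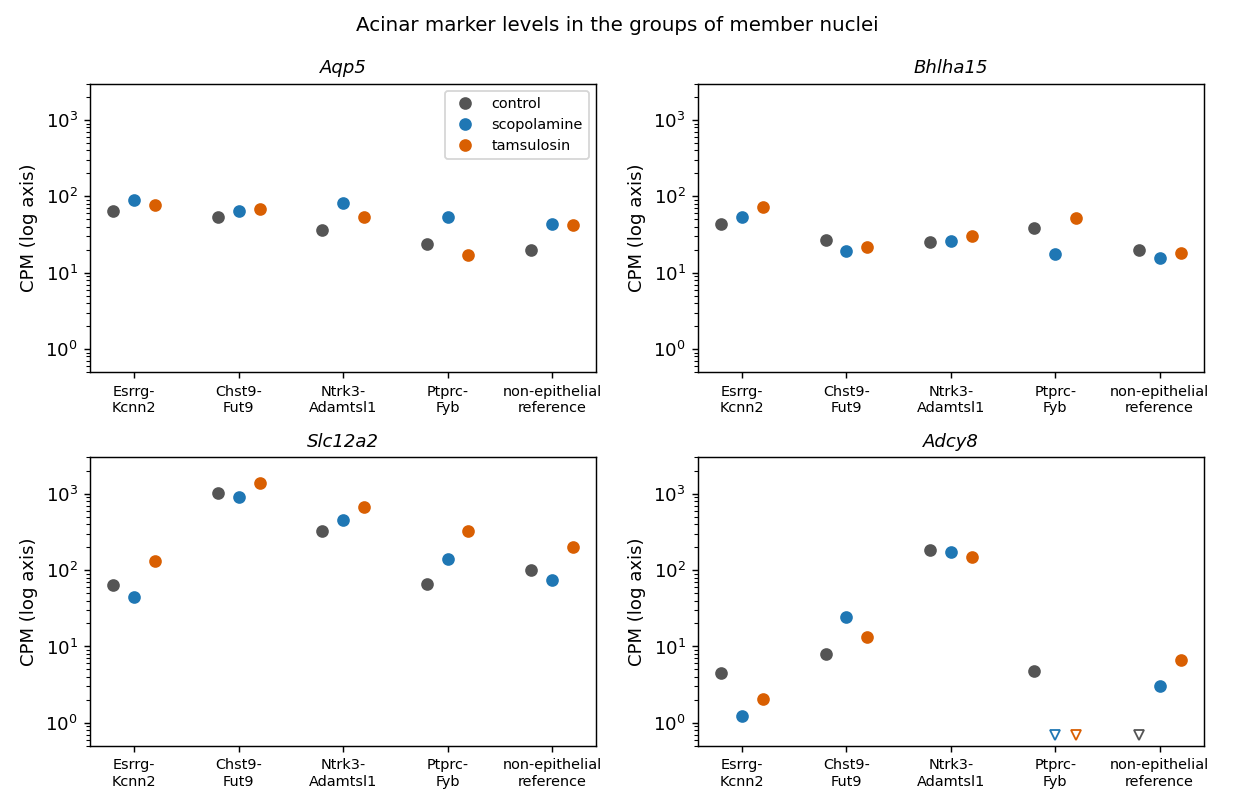
Levels of acinar markers (CPM, log axis) in 4 groups of members and in the non-epithelial barcodes, 1 point per library, without intervals. Open triangles near the lower edge mark libraries with no UMI. Slc12a2 is high in the Chst9-Fut9 group (912 to 1377 CPM) and Adcy8 in the Ntrk3-Adamtsl1 group (151 to 186 CPM). Aqp5 and Bhlha15 lie above the non-epithelial barcodes in the Esrrg-Kcnn2 group, where the control background of each rests on only 3 UMIs.

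Several genes outside the sets separated the same groups in every library. Higher in the Chst9-Fut9 nuclei were the transcription factor Tfcp2l1 (897, 828 and 869 CPM in control, scopolamine and tamsulosin against 65.7, 71.3 and 58.9 CPM), the receptor tyrosine kinase Kit (194, 195 and 209 CPM against 48.5, 23.1 and 39.5 CPM) and the ligand Wnt5b (326, 300.2 and 251 CPM against 12.4, 8.58 and 7.20 CPM). Ano1, the calcium-activated chloride channel through which acinar cells secrete, was at 628, 517 and 671 CPM in the Chst9-Fut9 group and at 146, 160 and 153 CPM in the Esrrg-Kcnn2 group, in both above 24.6 to 29.2 CPM in the non-epithelial barcodes. Flt1, listed as an endothelial marker, was at 162, 195 and 228 CPM against 11.8, 11.7 and 14.0 CPM, and Mylk, listed as a myoepithelial marker, also sat mostly in the Chst9-Fut9 nuclei, with 90.4% of its tamsulosin UMIs. Higher in the Esrrg-Kcnn2 nuclei were Phyh, which starts the breakdown of branched fatty acids (3343, 1188 and 1328 CPM against 916, 252 and 208 CPM), and the transcription factor Etv1 (564, 759 and 712 CPM against 186, 236 and 126 CPM). The duct marker list summed to 0.0694%, 0.0763% and 0.170% of the RNA in the Esrrg-Kcnn2 group and 0.173%, 0.345% and 0.744% in the Chst9-Fut9 group. Most of this difference was lactoferrin (Ltf), which the rule did not use. It was at 190, 186 and 1156 CPM in the Esrrg-Kcnn2 group and at 991, 2717 and 6603 CPM in the Chst9-Fut9 group. The sum also holds the duct genes that the rule capped. Of these Ehf was at 330, 382 and 339 CPM against 433, 393 and 398 CPM. Krt7 differed more, at 2.83, 1.05 and 4.32 CPM against 28.3, 33.1 and 24.7 CPM. Wfdc2 was also higher in the Chst9-Fut9 group in every library. Krt23 was lower there in control and scopolamine, and Elf5 in scopolamine. Krt8, which the rule did not use, was at 21.3, 55.9 and 59.3 CPM against 89.7, 119 and 132 CPM. Krt18, also not used, was higher there in every library. The sum is not read for the list, but several duct markers besides Ltf were higher in the Chst9-Fut9 nuclei.

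The other groups were small. Nuclei high in Ntrk3 and Adamtsl1 made up 3.11% of control, 4.55% of scopolamine and 3.49% of tamsulosin members. They held Adcy8 at 186, 174 and 151 CPM, against 4.43, 1.23 and 2.06 CPM in the Esrrg-Kcnn2 group, together with the smooth muscle actin Acta2 (240, 105 and 99.4 CPM) and the smooth muscle myosin Myh11 (277, 167 and 223 CPM), although the rule capped Myh11. The keratins Krt5 and Krt14 of myoepithelial cells were seen there with only 2 to 4 UMIs per library and Oxtr with none. Nuclei with Ptprc and Fyb, genes of white blood cells, made up 2.82%, 2.19% and 0.588%. Nuclei high in Bpifa2, Smr3a and Amy1, secretory products known from salivary glands, numbered 13 in control, 0 in scopolamine (3 nuclei, the limit used for a count of 0, would be 0.173%) and 51 in tamsulosin, or 2.0% of its members. In tamsulosin they held Slc12a2 at 1320 CPM and Adcy8 at 267 CPM.

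The same division was seen in related nuclei that the rule left out. Among nuclei that met it except for higher Car6, the Chst9-Fut9 share was 3.78% of 370 in control, 27.6% of 181 in scopolamine and 37.8% of 246 in tamsulosin. Among those above 8000 UMIs it was 3.46% of 722, 2.83% of 565 and 16.7% of 641. In deep nuclei tamsulosin was again highest, while control and scopolamine overlapped.

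In scopolamine against control members, several tear protein and ion transport genes were higher, and a lipase and several genes of amino acid supply and clock output were lower. Members were compared on log2(CPM + 5) after subtracting the median over the 5945 genes with a mean of at least 20 CPM, which was -0.19. At least 1.5-fold higher on that scale were 363 genes (6.11% of those tested), and 183 were lower (3.08%). Without subtracting the median the counts were 212 higher and 455 lower, so the balance of directions rests on that choice. Within the Esrrg-Kcnn2 group alone 309 of 5800 genes were higher (5.33%) and 195 lower (3.36%). Of genes tested in both, 270 of the 309 higher calls of all members (87.4%) and 152 of the 182 lower calls (83.5%) were also called in that group.

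The largest differences upward among the named genes included the lipase family gene Lipo1, at 9.38 CPM (7.51 to 11.6) in control, 100.1 (92.8 to 108) in scopolamine and 120 (113 to 126) in tamsulosin members, 10.7-fold higher (8.53 to 13.5) in scopolamine. Esp16, of the exocrine gland secreted peptides, was at 90.0, 512 and 452 CPM, 5.69-fold higher (5.28 to 6.14). For both, scopolamine and tamsulosin were high and control low, also in the non-epithelial barcodes, which had 19.9, 55.4 and 87.6 CPM of Lipo1 and 46.4, 381 and 469 CPM of Esp16. The control background of Lipo1 rested on only 3 UMIs, so control members are not placed against it. For Esp16 tamsulosin members were close to their background, which rested on 209 UMIs. The estrogen sulfotransferase Sult1e1 was at 8.19, 58.0 and 190 CPM. In the Chst9-Fut9 nuclei it was at 69.2, 355 and 346 CPM and in the Esrrg-Kcnn2 nuclei at 2.46, 14.0 and 20.2 CPM, close to 12.3 and 13.5 CPM in the non-epithelial barcodes of the latter libraries. The receptor phosphatase Ptprt was at 68.6, 320 and 218 CPM, and the synaptic adhesion gene Lrrc4 at 73.7, 238 and 199 CPM, against 26.5, 123 and 42.7 CPM and 39.8, 76.9 and 71.9 CPM in the non-epithelial barcodes. Insyn2a and Pdlim3 completed the named protein-coding genes, at 5.81-fold (4.34 to 7.89) and 3.44-fold (3.10 to 3.82). The antisense genes Sorbs2os, Plet1os and Dtnbos were called as well, at 6.15-fold, 5.81-fold and 4.32-fold. Their reads may not be separable from those of the opposite strand, since the strand setting of the counting is not given in the sources used here.

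Downward, the pancreatic lipase relative Pnliprp1 had 1088 CPM (1067 to 1110) in control, 57.2 (51.8 to 63.1) in scopolamine and 22.3 (19.6 to 25.2) in tamsulosin members. It was 19.0-fold lower (17.2 to 21.1) in scopolamine, and 17.8-fold lower within the Esrrg-Kcnn2 group. Esp36 was at 883, 221 and 144 CPM, again with control alone high. The kinase gene Camk1d (1096, 228 and 224 CPM), Cmss1 (686, 164 and 148 CPM) and the mitochondrial leucyl-tRNA synthetase Lars2 (752, 180 and 210 CPM) were likewise high in control alone. All of these genes were also highest in control in the non-epithelial barcodes. There Pnliprp1 was at 318, 12.3 and 8.98 CPM and Esp36 at 571, 105 and 76.4 CPM. Camk1d was at 1075, 735 and 667 CPM, Cmss1 at 318, 191 and 184 CPM and Lars2 at 398, 175 and 281 CPM. Ttc7b was at 108, 21.6 and 12.5 CPM, against 99.5, 76.9 and 33.7 CPM. Bpifa2, Smr3a and Amy1 were also among the lowest. Bpifa2 was at 93.6 CPM in control members and had 0 UMIs in scopolamine members, and was at least 219-fold lower against a limit of 3 counts over the library. In control 49.4% of Bpifa2, 35.7% of Smr3a and 56.1% of Amy1 UMIs came from the 13 nuclei of the Bpifa2-Smr3a group. All 20 named genes were still called in the Esrrg-Kcnn2 group alone. In the Chst9-Fut9 group, with fewer nuclei, 633 of 6105 genes were higher (10.4%) and 412 lower (6.75%).

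Among the secreted tear proteins of a fixed list, 10 of 22 tested genes were higher and 3 lower in scopolamine members. Of all tested genes 6.11% were higher and 3.08% lower. The median centred log2 ratio of the list was 0.55, where the median of all tested genes is 0 by construction. The odorant-binding lipocalin Obp1a was at 18426, 44372 and 51369 CPM in control, scopolamine and tamsulosin members, and the prolactin-induced protein Pip at 1158, 3259 and 4238 CPM. The lower ones were Pnliprp1, the antimicrobial lactoperoxidase Lpo (525, 181 and 218 CPM) and the mucin-like Dmbt1 (295, 166 and 836 CPM). Non-epithelial barcodes, which should not make these proteins, showed the same order. Obp1a there was at 11001, 39449 and 60131 CPM, and the whole list took 2.19%, 6.29% and 10.0% of their RNA against 3.81%, 7.63% and 9.23% in members. In tamsulosin the members were thus below background, and the part of free RNA in the differences of the tear protein list was not tested.

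Of 15 tested genes of ion and water transport, 4 were called higher and none lower, where 6.11% of all tested genes were higher. Aqp5 was 1.38-fold higher (1.23 to 1.55) in scopolamine. The calcium-activated potassium channel Kcnn4 was at 27.5 CPM in control, 92.9 in scopolamine and 123 in tamsulosin members, against 19.9, 33.8 and 58.4 CPM in the non-epithelial barcodes. The control background of Kcnn4 rested on few UMIs, so control members are not placed against it. The sodium pump subunit Atp1b1 (13.8, 28.0 and 108 CPM) was also called higher. Of the receptors for nerve signals, 4 were tested and none was called. Chrm3, which the rule used, was at 3920, 3981 and 3657 CPM. Adra1a, the alpha-1A adrenergic receptor and so a target of tamsulosin, was at 287 CPM (276 to 298) in control, 195 (185 to 206) in scopolamine and 149 (142 to 157) in tamsulosin members, and at 299, 211 and 162 CPM in the Esrrg-Kcnn2 group. Its intervals did not overlap between libraries, but the centred ratios, -0.36 in scopolamine against control and -0.24 in tamsulosin against scopolamine on the log2 scale, did not reach the call. In tamsulosin against control members it was called lower at -0.61, and at -0.53 in the Esrrg-Kcnn2 group it was not. In tamsulosin against scopolamine 5 receptors were tested, and Vipr1 was called higher and P2rx7 lower. There 9.31% of all tested genes were higher and 3.06% lower. Adra1b and Adra1d were seen with at most 9 UMIs in any library.

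In the exocytosis list 2 of 15 tested genes were higher and none lower, where 6.11% of all tested genes were higher. The vesicle SNARE Vamp2 was among the higher ones, at 24.4, 53.2 and 45.7 CPM, and non-epithelial barcodes had 26.5, 33.8 and 35.9 CPM of it. In the list of the secretory pathway and endoplasmic reticulum, the chaperone Calr and the stress-induced factor Manf were the 2 higher of 22 tested, at 57.1, 83.9 and 117 CPM and at 30.1, 48.3 and 58.8 CPM. Nothing is read for the lists from counts this small. Pigr, the receptor that carries immunoglobulin A into tears, was 2.55-fold higher (2.41 to 2.70), at 192, 489 and 305 CPM. The growth factor Nrg4 was at 43.1, 128 and 58.1 CPM. The fibrinogen chain Fgg was lower, at 58.5, 16.7 and 13.7 CPM.

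Clock genes differed between control and both of the other libraries. In the Esrrg-Kcnn2 group Arntl, the activator at the centre of the clock, was at 39.9 CPM (35.6 to 44.4) in control, 150 (140 to 161) in scopolamine and 113 (104 to 123) in tamsulosin. Its partner Npas2 was at 2.95, 31.7 and 27.0 CPM, while Clock itself was at 232, 268 and 233 CPM. Opposite in order were the repressor Nr1d2 (251, 72.8 and 73.7 CPM), Per3 (69.0, 25.2 and 26.5 CPM), the output factor Tef (243, 98.9 and 81.7 CPM) and Nr1d1 (12.2, 2.98 and 4.73 CPM). Dbp, a further output factor, was seen with 71, 6 and 4 UMIs. Per1 did not follow, at 16.6, 24.0 and 17.1 CPM. Control stood apart from both other libraries for Arntl, Nr1d2, Per3 and Tef, while the intervals of scopolamine and tamsulosin overlapped for Nr1d2 and Per3 but not for Arntl and Tef.

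Among all members 2 of 4 tested clock activators were called higher in scopolamine (Arntl and Npas2), where 6.11% of all tested genes were. Of 5 tested repressors and output genes 3 were lower (Per3, Nr1d2 and Tef), where 3.08% of all tested genes were. The same direction was seen in the Chst9-Fut9 nuclei, with Arntl at 20.5, 73.1 and 56.8 CPM and Nr1d2 at 200, 118 and 107 CPM. It was also seen in the non-epithelial barcodes, with Arntl at 73.0, 160 and 103 CPM and Nr1d2 at 265, 55.4 and 42.7 CPM. The time of day at which each gland was taken is not given in the sources used here, and 1 library per group cannot tell it apart from treatment.

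**Figure D3:**
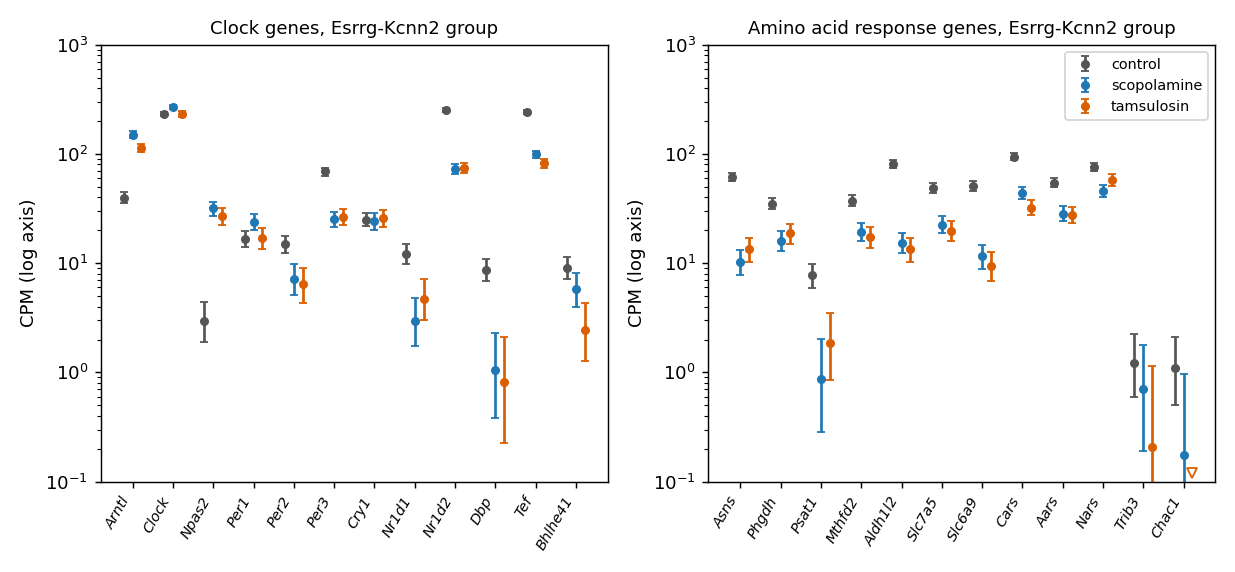
Levels (CPM, log axis) of clock genes and amino acid response genes in the Esrrg-Kcnn2 group, 1 point per library with its exact 95% Poisson interval. Arntl and Npas2 are low in control (39.9 and 2.95 CPM) and Nr1d2, Per3, Tef, Asns and Aldh1l2 are high there, with both other libraries on the far side of control.

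Several genes of amino acid supply were lower in the scopolamine library. Of 12 tested genes of the amino acid response list, 7 were lower in all members (Asns, Phgdh, Aldh1l2, Slc7a5, Slc6a9, Cars and Aars) and 1 was higher (the stress cofactor Nupr1), with a median of -0.69. In the Esrrg-Kcnn2 group 8 were lower, Mthfd2 being added, and 1 higher, with a median of -0.68. Of all tested genes 3.08% were lower in members and 3.36% in the Esrrg-Kcnn2 group. Asparagine synthetase (Asns) was there at 61.6 CPM (56.4 to 67.3) in control, 10.3 (7.86 to 13.3) in scopolamine and 13.4 (10.3 to 17.1) in tamsulosin, 5.97-fold lower (4.55 to 7.95) in scopolamine. The mitochondrial folate enzyme Aldh1l2 was at 81.0, 15.4 and 13.4 CPM and the glycine transporter Slc6a9 at 50.9, 11.6 and 9.47 CPM. The serine enzyme Phgdh (35.1, 16.1 and 18.7 CPM) and the large amino acid transporter Slc7a5 (48.6, 22.6 and 19.8 CPM) had smaller differences. Cysteinyl- and alanyl-tRNA synthetase, Cars and Aars, were at 94.0, 44.3 and 32.3 CPM and at 54.3, 28.4 and 27.6 CPM. For each of these lower genes control was high, and the intervals of scopolamine and tamsulosin overlapped for all of them except Cars. Nupr1 was at 200.4, 412 and 240 CPM. In the non-epithelial barcodes Asns was also highest in control, at 46.4, 0 and 4.49 CPM from 7, 0 and 2 UMIs.

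The 250 bases before the start of 5 of these genes are shown because the factors of both pathways are known to bind short motifs there. They are RefSeq windows of GRCm38.p6, read 5′ to 3′ on the gene's strand, with matches on either strand in capitals: TTATGTAA, which Dbp and Tef bind, in Per3 (chr4:151044666-151044915, minus strand), CACGTG, the E-box of Arntl and Clock, in Tef (chr15:81802423-81802672, plus strand), AGGTCA, the Nr1d half-site, in Nr1d2 (chr14:18239107-18239356, minus strand), and TGATGNAA, the amino acid response element of Atf4, in Asns (chr6:7693210-7693459, minus strand) and Aars (chr8:111033592-111033841, plus strand).
Per3: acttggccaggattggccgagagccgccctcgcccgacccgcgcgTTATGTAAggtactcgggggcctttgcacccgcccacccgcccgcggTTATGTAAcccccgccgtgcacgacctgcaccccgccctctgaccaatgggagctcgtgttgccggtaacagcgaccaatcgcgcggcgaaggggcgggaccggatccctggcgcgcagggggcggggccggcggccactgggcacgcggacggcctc
Tef: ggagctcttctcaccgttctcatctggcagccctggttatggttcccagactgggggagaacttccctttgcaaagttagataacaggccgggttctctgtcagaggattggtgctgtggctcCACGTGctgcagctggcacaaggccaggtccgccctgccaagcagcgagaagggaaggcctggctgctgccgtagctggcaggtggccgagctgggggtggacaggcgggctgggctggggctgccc
Nr1d2: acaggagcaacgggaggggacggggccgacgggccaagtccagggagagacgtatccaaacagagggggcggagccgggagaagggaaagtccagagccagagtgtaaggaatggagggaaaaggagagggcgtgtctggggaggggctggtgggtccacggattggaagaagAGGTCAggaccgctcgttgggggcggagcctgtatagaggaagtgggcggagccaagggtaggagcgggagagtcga
Asns: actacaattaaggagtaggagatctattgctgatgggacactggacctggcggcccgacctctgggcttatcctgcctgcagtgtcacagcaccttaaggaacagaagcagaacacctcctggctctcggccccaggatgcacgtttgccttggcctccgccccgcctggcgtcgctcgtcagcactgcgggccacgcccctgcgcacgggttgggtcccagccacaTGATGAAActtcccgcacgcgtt
Aars: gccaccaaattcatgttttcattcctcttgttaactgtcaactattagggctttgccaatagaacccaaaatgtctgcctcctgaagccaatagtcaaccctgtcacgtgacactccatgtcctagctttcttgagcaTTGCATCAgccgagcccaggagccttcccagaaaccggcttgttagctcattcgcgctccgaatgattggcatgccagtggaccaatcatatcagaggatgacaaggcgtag

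TTATGTAA was present in 2 places in the Per3 window, 205 and 158 bases before the start, and in 0.819% of all 32851 windows of this length. CACGTG lay 127 bases before the start of Tef and was in 6.02% of all windows. AGGTCA lay 77 bases before that of Nr1d2 and was in 14.0%. TGATGNAA lay 23 bases before the start of Asns and 112 before that of Aars, and was in 3.45%. Over the lists, 6 of the 13 clock repressor and output genes with a window held CACGTG, 2 held AGGTCA and 1 held TTATGTAA. Of the 20 amino acid response genes with a window, 6 held TGATGNAA. A gene counted when any of its windows matched, while the shares above are over windows. Tef had 2 windows, and one with a match is shown. The Aars window also held CACGTG, apart from the capitals. The motifs were searched after the genes had been seen to differ, and a match is a run of letters, not a measured site.

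In tamsulosin against scopolamine members, several secreted protein and ion transport genes were higher, and genes such as Sfmbt2 and Abcb1a were lower. The Chst9-Fut9 share differed as well, at 16.0% in scopolamine and 51.7% in tamsulosin, and its part in these differences was not tested. Of 5814 genes tested, 541 were at least 1.5-fold higher (9.31%) and 178 lower (3.06%) in all members. Without subtracting the median these were 431 and 318. In the Esrrg-Kcnn2 group alone, 215 of 5583 were higher (3.85%) and 16 lower (0.287%). The lower count there was 50 after thinning each nucleus to 1600 UMIs and 85 at 1600 to 4000 UMIs. Of genes tested in both, 177 of 353 higher calls (50.1%) but only 8 of 165 lower calls (4.85%) of all members were also called in that group.

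Most of the 10 lowest named genes were not called in the Esrrg-Kcnn2 group alone. Sfmbt2, a polycomb gene, was at 125, 86.6 and 31.0 CPM in control, scopolamine and tamsulosin members, with tamsulosin low. Within the Esrrg-Kcnn2 group it was at 138, 100.5 and 62.8 CPM. The drug efflux pump Abcb1a was at 71.8, 106 and 42.0 CPM in all members and at 77.8, 119 and 75.1 CPM in the group, and the epidermal growth factor family receptor Erbb4, not among the 10, at 2029, 1974 and 995 CPM and at 2135, 2215 and 1785 CPM. Of the 10 only Cyp2b19, a fatty acid epoxygenase (112, 64.6 and 36.8 CPM in the group), and Pnliprp1 (1170, 65.8 and 36.6 CPM) were still called. The other 8 (Sfmbt2, Abcb1a, Nexmif, Dcdc2a, D7Ertd443e, Mthfd1l, Slco1a6 and Ldlrad3) had centred log2 ratios of -0.50 to -0.21 there, against -1.21 to -0.99 in all members. Pigr went the same way, from 0.624-fold (0.595 to 0.655) in all members to 0.898-fold (0.851 to 0.947) in the group, as did Nrg4, from 0.455-fold to 0.785-fold. Within the Chst9-Fut9 group, however, the same 8 genes were at -1.30 to -0.72, except Mthfd1l at -0.30. Cyp2b19 was at -0.74 and Pnliprp1 at -0.071 there. Some levels were low in that group, such as Sfmbt2 at 18.3 CPM in scopolamine and 5.38 CPM in tamsulosin.

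**Figure D4:**
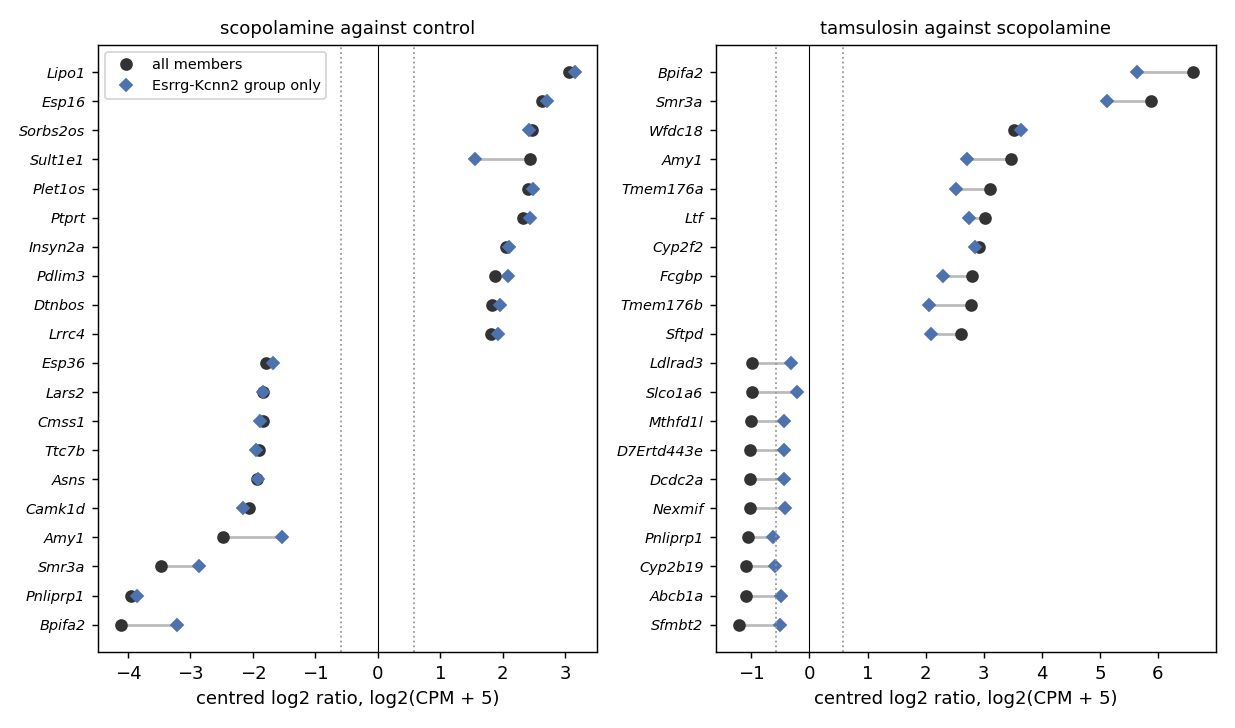
Centred log2 ratios on log2(CPM + 5) of the named genes in scopolamine against control and in tamsulosin against scopolamine, over all members (circles) and in the Esrrg-Kcnn2 group alone (diamonds). In the first comparison both symbols lie past 1.5-fold for all 20 genes, and in the second 8 of the 10 lowest genes move inside it.

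The 10 highest named genes were called in both, but in the Esrrg-Kcnn2 group none of the 10 was above the non-epithelial barcodes of the tamsulosin library, so there they are read as background. Lactoferrin (Ltf), the iron-binding antimicrobial protein of tears, was at 251, 536 and 4006 CPM in control, scopolamine and tamsulosin members, 7.48-fold higher (7.23 to 7.73) in tamsulosin. It was at 190, 186 and 1156 CPM in the Esrrg-Kcnn2 group, 991, 2717 and 6603 CPM in the Chst9-Fut9 group, and 305, 265 and 1748 CPM in the non-epithelial barcodes. Within the Chst9-Fut9 group, where its level was above background in all libraries, it was 2.43-fold higher (2.33 to 2.53). The whey acidic protein Wfdc18 was at 458, 995 and 4010 CPM in the Chst9-Fut9 group and at 126, 252 and 2960 CPM in the non-epithelial barcodes. The cytochrome Cyp2f2 (2142, 1655 and 3567 CPM in the Chst9-Fut9 group), the mucus protein Fcgbp (261, 349 and 746 CPM), the collectin Sftpd (104, 180 and 334 CPM) and the membrane proteins Tmem176a (39.3, 86.8 and 266 CPM) and Tmem176b (40.9, 89.0 and 231 CPM) were likewise highest in tamsulosin there.

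Bpifa2, Smr3a and Amy1 closed the list. Bpifa2 had 0 UMIs in scopolamine and 4803 in tamsulosin members, at least 1019-fold higher against 3 counts, and 45.8% of the tamsulosin UMIs came from the 51 nuclei of the Bpifa2-Smr3a group. In the other tamsulosin members it was below the 391 CPM of the non-epithelial barcodes, at 222 CPM in the Esrrg-Kcnn2 and 247 CPM in the Chst9-Fut9 group. Amy1 was at 148, 19.1 and 238 CPM in control, scopolamine and tamsulosin members. These are proteins known mainly from salivary glands, and whether tissue next to the lacrimal gland was taken along was not tested.

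In the Chst9-Fut9 group 354 of 5905 tested genes were higher (5.99%) and 174 lower (2.95%) in tamsulosin.

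Tamsulosin members also differed from control members, a comparison that shares its libraries with the others. Over all members 899 genes were higher (15.1%) and 477 lower (7.99%), in the Esrrg-Kcnn2 group 514 (8.95%) and 223 (3.88%), and in the Chst9-Fut9 group 759 (12.6%) and 408 (6.8%). The median over all members that was subtracted was -0.31, and without subtracting it 598 genes were higher and 1465 lower. Lipo1 in the Esrrg-Kcnn2 group was at 9.60 CPM in control and 189 CPM in tamsulosin, and Pnliprp1 at 1170 and 36.6 CPM.

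For ion transport genes the values in tamsulosin against scopolamine depended on which nuclei were compared. Over all members 9 of 16 tested were higher and none lower, with a median of 0.80, where 9.31% of all tested genes were higher. In the Esrrg-Kcnn2 group 6 of 14 were higher and none lower, with a median of 0.10, where 3.85% were higher. Both counts include Car6, which the rule capped, and Car12, a gene of the Chst9-Fut9 set. The values of these genes describe how the nuclei were chosen and divided. Slc12a2 was 4.64-fold higher (4.37 to 4.93) over all members, 2.96-fold within the Esrrg-Kcnn2 group at background level, and 1.51-fold (1.40 to 1.63) within the Chst9-Fut9 group. Ano1 was 2.06-fold higher (1.94 to 2.19) over all members and 0.956-fold (0.867 to 1.05) in the Esrrg-Kcnn2 group. The potassium channel Kcnq1 was 1.92-fold (1.56 to 2.37) and 0.711-fold (0.551 to 0.927) within the Chst9-Fut9 group. Kcnn4 was called higher in the Esrrg-Kcnn2 group, 1.48-fold (1.32 to 1.66), at 25.1, 94.5 and 140 CPM, and was not called over all members. In scopolamine and tamsulosin it was above background there, while the control background rested on too few UMIs to place it.

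Of 22 tested genes of the secretory pathway and endoplasmic reticulum list, 8 were higher and none lower within the Esrrg-Kcnn2 group, with a median of 0.43, where 3.85% of all tested genes were higher. Over all members 3 of 22 were higher, with a median of 0.25, where 9.31% were. Calr was at 58.0, 87.2 and 123 CPM, and the disulfide isomerase Pdia6 at 35.3, 33.1 and 55.2 CPM. The non-epithelial barcodes had 13.3, 55.4 and 115 CPM of Calr and 0, 46.1 and 47.2 CPM of Pdia6, near the levels of the group in tamsulosin, and the part of free RNA was not tested. Tear proteins counted 8 higher and 2 lower of 22 in all members and 11 higher and 1 lower in the group. Bhlha15 was 1.37-fold higher (1.17 to 1.60) in the group and not called. None of the clock lists' genes was called in the Esrrg-Kcnn2 group, and of 7 tested amino acid genes only Nupr1 was, lower at 0.582-fold (0.542 to 0.625).

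RNA of other cell types differed between libraries among members. Macrophage markers summed to 0.00884%, 0.00761% and 0.00432% of member RNA and fibroblast markers to 0.00826%, 0.00808% and 0.00536%, against 0.250% to 0.314% and 0.474% to 0.508% in the non-epithelial barcodes. All 7 and all 8 of these markers were detected in members. The lists include Mrc1, F13a1 and Lama2, which the rule capped in members and which helped choose the non-epithelial barcodes. The contrast between the 2 kinds of barcodes thus describes how they were chosen. In members Lama2 alone was at 24.5, 24.1 and 6.82 CPM. Ptprc, for which the Ptprc-Fyb group is named, was at 47.5, 39.0 and 22.2 CPM. Haemoglobin RNA was concentrated in single nuclei: 10 nuclei held 98.0% of its UMIs in control, 97.3% in scopolamine and 82.7% in tamsulosin, the highest with 967, 1068 and 1525. In tamsulosin 834 members had at least 1 haemoglobin UMI, against 55 in control and 41 in scopolamine.

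The genes that varied most among the members of a library were not the same in each library. The Fano factor, variance over mean of UMIs after thinning to 1600 per nucleus, had a median of 1.08 over 2795 genes in control, 1.08 over 2571 in scopolamine and 1.09 over 2422 in tamsulosin. In control it was highest for Amy1 (63.0), Bpifa2 (25.8), Igha (9.82), Cmss1 (9.16) and Smr3a (9.09). In tamsulosin it was highest for Bpifa2 (38.4), followed by Smr3a and Amy1 (18.0), and in scopolamine, which had no nuclei of the Bpifa2-Smr3a group, for Obp1a (16.8), the nuclear RNA Malat1 (10.6) and Chst9 (9.80). Dividing the nuclei by set genes lowers the spread of those genes by construction. Of genes outside the sets, Igha (10.3), Cmss1 (9.84), the kinase Cdk8 (7.55) and Wfdc18 (5.50) kept a wide spread within the Esrrg-Kcnn2 group of the control library. The immunoglobulin A gene Igha was seen in 231 of 3083 control members, 10 of which held 34.8% of its UMIs. Cmss1 was seen in 2257, and 16 of them had at least 20 UMIs. In tamsulosin, Nrg1, a ligand of the receptor family of Erbb4, had a Fano factor of 8.68 in the Esrrg-Kcnn2 group.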

How the data were processed

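Nuclei of 3 lacrimal gland libraries, 1 per group, were analysed from matrices of raw UMI counts over 32285 genes that the authors deposited. They were made with Cell Ranger 5.0.0 on mm10, per the submitters' processing notes. Deposited totals were 33500727, 35237256 and 57969348 UMIs (control, scopolamine, tamsulosin). UMIs of members were summed per library and scaled to CPM. Ratios used log2(CPM + 5), less the median over genes with a mean of at least 20 CPM, and at least 1.5-fold was a call. Named genes were the 10 highest and 10 lowest of these in 2 comparisons, at or above the non-epithelial barcodes in the higher library, leaving out genes of the rule, unnamed models, mitochondrial, ribosomal protein and haemoglobin genes, and, for spread, the 10 highest Fano factors per library. Members and lists were chosen with earlier results of these data known. Gene sets of the groups were chosen after seeing the data. Scrublet marked 1 barcode in control and 0 in the other libraries, so it had not worked and no doublets were removed, except as an alternative. Values of some list members are not reported here. The steps were tested on simulated data. Python 3.11.15, numpy 2.4.6, scipy 1.17.1, pandas 2.3.3 and scanpy 1.11.5 were used.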

Additional observations from a re-analysis of the deposited data

How the results depend on the processing

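With 1 library per group no result has a replicate, and library, animal and treatment cannot be told apart. No paired analysis was possible because each group has 1 library and no replicate number. Depth limits genes of a few UMIs, and free RNA limits what is read from secreted proteins. Alternatives numbered 15 planned and 5 added after seeing the data (the Esrrg-Kcnn2 group alone, also thinned or at 1600 to 4000 UMIs, the Chst9-Fut9 group alone, and sets that differ by at least 2 times).

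Members made up 42.5%, 17.3% and 20.7% of the control, scopolamine and tamsulosin barcodes. The shares were 39.6%, 15.8% and 18.7% without the highest Scrublet scores, 17.8%, 7.18% and 6.38% with Chrm3 at 0.4% or more, 33.3%, 13.3% and 18.0% with no UMI of other cell types, and 32.7%, 9.51% and 9.77% at 1600 to 4000 UMIs. With secretory genes below 10% scopolamine and tamsulosin had 7.39% and 3.89%, and with at most 1% mitochondrial RNA control and tamsulosin had 40.5% and 15.9%. The Chst9-Fut9 share was 6.42% in control and 48.2% in tamsulosin with Chrm3 at 0.4% or more, 4.05% in control and 23.0% in scopolamine at 1600 to 4000 UMIs, 4.20% in control with sets at least 2 times apart, 23.5% in scopolamine and 62.4% in tamsulosin with secretory genes below 10%, and 43.6% in tamsulosin with at most 1% mitochondrial RNA. Tamsulosin was highest in each of these.

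For scopolamine against control, 363 genes were higher and 183 lower. Without centring these were 212 and 455, with a mean of at least 50 CPM 175 and 108, with no filter 660 and 641, and in the Chst9-Fut9 group 633 and 412. A pseudocount of 20 CPM gave 224 higher, and 1600 to 4000 UMIs gave 291 lower. For tamsulosin against scopolamine, 541 were higher and 178 lower. Higher counts were 331 with a mean of at least 50 CPM, 354 in the Chst9-Fut9 group, and 215 in the Esrrg-Kcnn2 group or 276 there after thinning. Lower counts were 313 with secretory genes below 10%, 100 with at most 1% mitochondrial RNA, 318 without centring, 103 with a pseudocount of 20 CPM, 100 with a mean of at least 50 CPM, 523 with no filter, and 16 in the Esrrg-Kcnn2 group, 50 there after thinning and 85 there at 1600 to 4000 UMIs. For tamsulosin against control, 899 were higher and 477 lower. These were 598 and 1465 without centring, 491 and 271 with a mean of at least 50 CPM, 1417 and 2010 with no filter, and 514 and 223 in the Esrrg-Kcnn2 group, where 296 were lower after thinning.

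Some centred log2 ratios changed sign, those of named genes within the Esrrg-Kcnn2 group and medians of lists also over all members. For scopolamine against control there, Sftpd was at -0.24 and Tmem176a at -0.047. Thinned, Fcgbp was at -0.15 and Tmem176a at -0.11, and at 1600 to 4000 UMIs Fcgbp was at -0.11, Sftpd at -0.022, Tmem176a at -0.094 and Tmem176b at -0.21. For tamsulosin against scopolamine, Plet1os was at 0.060 there at 1600 to 4000 UMIs. For tamsulosin against control, D7Ertd443e was at 0.0076 there, 0.26 thinned and 0.46 at 1600 to 4000 UMIs. The median of the haemoglobin genes was at -1.68 and -0.96 (tamsulosin against scopolamine and control) with secretory genes below 10%, -1.40 and -0.87 at 1600 to 4000 UMIs, and -1.85 and -1.08 in the Esrrg-Kcnn2 group at that depth. That of progenitor and repair genes was at -0.032 and -0.045 with no filter, and at -0.054 in tamsulosin against scopolamine in the Esrrg-Kcnn2 group. The causes were not tested.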

Other observations

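A few further groups of genes differed among members. Antigen presentation genes counted 4 of 7 tested higher in tamsulosin than in scopolamine members (H2-K1, H2-D1, B2m and Tapbp) and 1 lower (the mucosal chemokine Ccl28), where 9.31% of all tested genes were higher and 3.06% lower. In the Esrrg-Kcnn2 group 2 of 5 were higher (H2-K1 and B2m) and none lower, where 3.85% of all tested genes were higher. The class I light chain B2m was at 9.49, 16.0 and 43.4 CPM in control, scopolamine and tamsulosin members, and at 66.3, 89.2 and 142 CPM in the non-epithelial barcodes. H2-K1, a class I heavy chain, was at 101, 97.5 and 173 CPM against 199, 271 and 314 CPM. Both were thus below the non-epithelial barcodes in every library. The acute phase copper carrier ceruloplasmin (Cp) was at 25.3, 63.7 and 183 CPM in members and at 13.2, 18.0 and 32.3 CPM in the Esrrg-Kcnn2 group.

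None of 13 tested mitochondrial dynamics genes was called in scopolamine against control members, and none of 14 in tamsulosin against scopolamine members. Of all tested genes 6.11% were higher and 3.08% lower in the first comparison, and 9.31% and 3.06% in the second. With so few genes tested, the absence of calls is not read for the list. Of 17 autophagy genes none was called in the first comparison, and 3 were higher in the second (Lamp1, Ctsd and Ctsl), or 1 of 16 in the Esrrg-Kcnn2 group (Lamp1). In that comparison 9.31% of all tested genes were higher in members and 3.85% in the group. In tamsulosin against control, where 15.1% of all tested genes were higher in members and 8.95% in the group, 4 of 17 and 5 of 16 autophagy genes were higher, the lysosomal genes Lamp1, Ctsb, Ctsd and Ctsl in both. Lamp1 was at 39.2, 45.1 and 77.5 CPM in members and at 79.6, 80.0 and 60.6 CPM in the non-epithelial barcodes. The transferrin receptor Tfrc, which takes up iron, was at 637, 248 and 173 CPM in control, scopolamine and tamsulosin members, 2.56-fold lower (2.43 to 2.71) in scopolamine, and at 686, 282 and 310 CPM in the Esrrg-Kcnn2 group. The heat shock protein Hspa8 was at 14.8, 28.8 and 48.0 CPM in members and at 6.63, 40.0 and 47.2 CPM in the non-epithelial barcodes. Tsix, an antisense gene of the X-inactivation centre whose reads cannot be told apart from those of its partner without strand, was at 86.7, 220 and 166 CPM.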
